A study of Arabidopsis thaliana with 21 samples.

Results

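The cytochrome P450 genes were described in Arabidopsis roots given nitrate and in leaf cells transfected with regulators of nitrate and energy signalling. A gene was taken where its symbol starts with CYP, a family number and a subfamily letter, or where its description in the deposited tables holds the words cytochrome P450 in either case of letter. The cytokinin hydroxylase genes CYP735A1 and CYP735A2 were left out. Of the 2945 genes listed by the authors in either tissue 38 met this rule, 27 of 1128 in roots and 19 of 2065 in protoplasts, and 8 had values in both tissues. The families with most members were CYP71 with 6 genes and CYP90 with 3. ROT3 (CYP90C1), DWF4 (CYP90B1) and CYP718 were found through their descriptions, as were AT3G15760, AT3G44970, AT5G08250 and AT5G36130.

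Transcripts were sequenced in 21 libraries, 3 per group, and per the labels the 3 are biological replicates. The 12 root libraries came from the wild type Ler and from a line expressing HA-tagged KIN10 from the 35S promoter (p35S:KIN10-HA, KIN10ox below), which is active in most tissues. All root seedlings grew for 7 days on MGRL medium with 5 mM nitrate and for 2 days without nitrogen, and then received either KCl or KNO3, each at 5 mM, during 1 h. The sources used here do not say how many independent lines KIN10ox stands for. For the 9 protoplast libraries, mesophyll cells were taken from 4-week-old soil-grown Col-0 plants in short days (8 h light, 16 h dark). Their protoplasts, leaf cells freed of their walls, were transfected for GFP, for NLP7-GFP, or for NLP7-GFP with KIN10-Myc, so the groups differ in proteins made from introduced DNA in a short time. KIN10 provides the kinase activity of the SnRK1 complex, which responds to low energy, while NLP7 binds DNA and mediates early responses to nitrate. Mapped fragments numbered 19704764 to 20236390 per root library and 16189981 to 20436636 per protoplast library. In roots, 12 of 15 leaf and photosynthesis genes had values, and their summed level was 199 to 387 FPKM in Ler with KCl, 168 to 179 in Ler with KNO3, 213 to 694 in KIN10ox with KCl and 80.9 to 124 in KIN10ox with KNO3. Summed levels of 7 of 11 genes listed as seed genes were 36.5, 4.54 and 112 FPKM in KIN10ox with KCl and 2.03 to 8.00 in the other root libraries. The highest of these genes in KIN10ox with KCl was ICL, at a mean of 29.2 ± 27.0 FPKM (SD, n = 3). In protoplasts 3 of the 15 leaf genes had values, summing to 438 to 495 FPKM with GFP, 1288 to 1487 with NLP7 and 688 to 1160 with NLP7 and KIN10, and their part in the protoplast results was not tested. Fewer cells of a type and less RNA per cell cannot be told apart in such bulk samples.

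P450 enzymes are haem proteins, most of them held in the membrane of the endoplasmic reticulum, that use electrons from a reductase to insert an oxygen atom into small molecules. Plants have very many of them, and numbered families share sequence and often a branch of metabolism: hormones are made and broken down by some, and defence compounds, triterpenes, and the fatty chains of cutin and suberin by others. Each binds its haem through a cysteine near the end of the protein.

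The codons for that cysteine were read to see whether the members carry the feature that defines the family. The signature searched was a phenylalanine, glycine, arginine, cysteine and glycine in the usual spacing over 10 residues. It was present in the longest coding sequence of 30 of the 38 genes, each time within 1 exon. The 30 bases are shown 5′ to 3′ for members described below, from the RefSeq TAIR10.1 assembly, with the cysteine codon in capitals. On that assembly they lie at chr3:4498699-4498728 in CYP90D1, chr4:17188514-17188543 in ROT3, chr3:18814412-18814441 in DWF4, chr5:2136358-2136387 in CYP93D1 and chr5:14209449-14209478 in AT5G36130, all on the minus strand. CYP82G1 has them at chr3:9167629-9167658 on the minus strand, CYP82C2 at chr4:15464149-15464178 and CYP71B5 at chr3:19757263-19757292, both on the plus strand.
CYP90D1: tttggaggtggtcagagattgTGCcctggt
ROT3: tttggtggtgggcaaaggctaTGTcctggt
DWF4: tttggaggagggccaaggctaTGTgctggt
CYP93D1: tttggagctgggagaagaagtTGTcctgga
AT5G36130: tttggaggaggatccaggataTGTccaggg
CYP82C2: tttggttcgggaagaagatcaTGCccaggc
CYP82G1: ttcggttcgggaaggaggtcgTGTccggga
CYP71B5: tttggagccggacgtagggtcTGTcccggg

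Among the 8 genes without a match, CYP76G1, CYP79B3, CYP707A2, CYP707A3 and CYP710A3 have coding sequences of 463 to 566 codons, and no match says only that these residues do not stand in this spacing. The other 3 have short models: 135 codons in AT3G15760, 313 in CYP72C1 and 318 in CYP716A2. AT3G15760 is thus a member by its description alone. CYP716A2 and AT5G36130 (140 codons, with the signature) stand 2251 bases apart on the same strand of chromosome 5. Their FPKM levels, which are scaled by transcript length, ran together in all 12 root libraries, with a ratio of AT5G36130 to CYP716A2 of 0.858 to 1.14. Whether they are parts of 1 transcript was not tested, and the counts of calls between genotypes are given with both and with the pair as 1.

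Since the deposited tables hold only genes that the authors selected as changed by at least 2-fold in one of their comparisons, all members were chosen for a response to nitrate or to transfection. Counts below are therefore set beside the share among all listed genes of the same tissue. For nitrate against KCl and for transfection against GFP, "rose" and "fell" stand for genes in the authors' deposited table with an adjusted p under 0.05 there, and no test of these was run here. For KIN10ox against Ler and for KIN10 added to NLP7, calls are from edgeR's quasi-likelihood test with Benjamini-Hochberg adjustment over all listed genes tested, at 0.05. Levels are FPKM, which scales fragment counts by transcript length and by mapped fragments of the library, and folds are ratios of group means with their SE (n = 3 per group). These ratios are not the authors' deposited fold changes, so a gene in a deposited table can lie under 2-fold here.

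The first question was which P450 genes 1 h of nitrate changes in wild-type roots. Of 27 members with root values, 21 were in the authors' deposited table for Ler, 15 upward and 6 downward, against 68.3% of all 1128 root genes. An adjusted p under 0.05 was given there for 14 of the upward and all 6 of the downward ones, beside 43.8% and 16.5% of all root genes, so the shares are near the background. By fold, 15 members were at least 2-fold apart in mean FPKM without overlap of libraries, against 62.1% of all genes. By level, 20 of the 27 reached a mean of 1 FPKM in some root group and 7 did not.

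The P450 genes of brassinosteroid metabolism that had root values rose in Ler. Brassinosteroids are steroid hormones of growth, and of the 8 P450 genes listed for their synthesis and breakdown 4 had root values, all of which rose. Root values exist only for genes selected as changed by nitrate, and 43.8% of all root genes rose in Ler. The other genes of the list were in neither root table, so the pathway as a whole cannot be judged. CYP90D1, which with ROT3 hydroxylates the steroid side chain, stood at 4.76, 7.80 and 7.73 FPKM with KCl and at 45.1, 46.2 and 51.2 FPKM with KNO3. Every nitrate library lay far above every KCl library, and the rise was 7.02 ± 1.08-fold. ROT3 went from 12.6, 12.9 and 12.9 FPKM to 31.1, 28.3 and 28.5 FPKM, a rise of 2.29 ± 0.0712-fold. DWF4, which hydroxylates the side chain at an earlier and rate-limiting step, went from 7.21, 8.77 and 9.72 to 15.1, 15.1 and 18.7 FPKM, 1.90 ± 0.216-fold. CYP72C1, which lowers active brassinosteroid when overproduced, went from 16.4, 15.5 and 17.5 to 33.5, 29.6 and 32.8 FPKM, 1.94 ± 0.0991-fold. Genes of synthesis and of breakdown are thus both in this group, and libraries did not overlap for any of the 4.

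In the KIN10ox line the same 4 genes had higher means with nitrate, but 1 library stood apart. CYP90D1 rose from 7.86, 9.08 and 9.27 FPKM with KCl to 44.94, 23.10 and 44.97 FPKM with KNO3, and DWF4 went from 8.44, 10.2 and 8.47 to 16.7, 9.16 and 18.8 FPKM. In both genes library 2 with nitrate was the lowest of its group, and for DWF4 it lay within the KCl range. Of 18 members at a mean of at least 1 FPKM, 5 were at least 1.5-fold lower in this library than in both others, namely CYP90D1, DWF4, CYP72C1, CYP87A2 and CYP707A3. Among all 742 root genes at that level it was 15.2%, and in the other 11 root libraries such genes made up 0.943 to 7.2%. The pattern was thus not confined to the P450 genes, and whether it was stronger in them was not tested. Without this library the nitrate folds in KIN10ox were 5.15 in place of 4.31 for CYP90D1, 1.96 in place of 1.65 for DWF4, 1.96 in place of 1.71 for CYP72C1, 2.34 in place of 2.01 for CYP87A2 and 1.54 in place of 1.28 for CYP707A3. The first 3 and CYP707A3 thereby lay nearer their Ler folds, and CYP87A2 farther from its own of 1.74. This look at single libraries was chosen after the values were seen.

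Abscisic acid, the stress and dormancy hormone, is broken down by the CYP707A hydroxylases. CYP707A3 stood at 18.9, 21.2 and 19.5 FPKM in Ler with KCl and at 37.2, 35.6 and 38.4 FPKM with KNO3, a rise of 1.87 ± 0.0757-fold. In KIN10ox the KCl libraries at 28.0, 33.6 and 23.6 FPKM overlapped the nitrate libraries at 40.4, 21.9 and 47.2 FPKM, and the gene was not in that table. CYP707A2 was at 0 counts in all 3 Ler KCl libraries and at 0.160 ± 0.0400 FPKM (SD, n = 3) with nitrate, 13 counts in all, which is at least 4.85-fold above the limit of 3 counts over the group. In KIN10ox CYP707A2 was at 0.160 ± 0.106 FPKM with KCl and 0.0933 ± 0.0924 FPKM with KNO3 (SD, n = 3). These are 12 and 8 counts, and it was not in the KIN10ox table. Of the 4 CYP707A genes listed, CYP707A2 and CYP707A3 had values.

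Indole glucosinolates are sulphur-rich defence compounds made from tryptophan. CYP79B3, which turns tryptophan into the first oxime intermediate, went from 54.7, 33.7 and 48.2 FPKM to 84.7, 94.8 and 81.6 FPKM in Ler, 1.91 ± 0.275-fold. CYP91A2, also named CYP81F1 and able to hydroxylate the indole ring, went from 45.3, 40.4 and 39.0 to 85.2, 89.8 and 75.1 FPKM, 2.01 ± 0.140-fold. Both rose with no overlap between libraries. Of the 12 P450 genes listed for this branch and for camalexin these 2 had root values, and of 15 partner genes 3 did. The regulator gene MYB34 rose from 29.9 ± 5.33 to 66.2 ± 2.07 FPKM and the sulphotransferase gene SOT17 from 18.03 ± 3.45 to 35.5 ± 2.71 FPKM (SD, n = 3), while IGMT1, a methyltransferase gene downstream of CYP81F enzymes, fell in KIN10ox from 24.7 ± 3.37 to 10.1 ± 0.620 FPKM. In Ler IGMT1 went from 12.6 ± 1.18 to 6.32 ± 0.444 FPKM and was not in that table, and the difference of its responses had an adjusted p of 0.406 by edgeR. It was higher in KIN10ox than in Ler with KCl and with KNO3, adjusted p = 0.000574 and 0.00784 by edgeR. Reads may be shared between IGMT1 and its close copies.

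Among members with counts in both Ler groups the largest rise was that of CYP78A9, whose product promotes the growth of fruit and seed through an unknown substrate. It stood at 7.75, 9.02 and 7.40 FPKM with KCl and at 70.3, 64.4 and 51.3 FPKM with KNO3, 7.70 ± 0.841-fold. In KIN10ox it rose from 6.02, 5.52 and 6.64 to 47.5, 28.8 and 33.2 FPKM, 6.02 ± 0.988-fold. CYP710A3, of the sterol desaturase family, went from 23.8, 19.3 and 9.11 to 52.6, 49.0 and 32.8 FPKM in Ler, and replicate 3 was the lowest library in each of the 4 root groups. Its expected counts were not whole in any root library, such as 614.49 in Ler library 1 with KCl, so reads may be shared with other genes. AT3G15760, the short model, rose from 0.880 ± 0.0600 to 3.08 ± 0.722 FPKM (SD, n = 3). CYP705A20 and AT5G08250 rose 1.99 ± 0.209-fold and 1.98 ± 0.153-fold.

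The members that fell were led by the putative triterpene oxidase CYP716A2 and by CYP93D1, whose role is not known. CYP716A2 went from 146, 136 and 134 FPKM to 48.3, 45.5 and 41.4 FPKM in Ler, 3.07 ± 0.159-fold lower. In KIN10ox it went from 83.4, 82.8 and 74.1 to 27.4, 30.5 and 28.7 FPKM, 2.77 ± 0.135-fold lower. CYP93D1 fell from 5.64, 5.39 and 8.56 to 1.49, 2.02 and 2.16 FPKM in Ler, 3.46 ± 0.655-fold. Among the smaller falls in Ler, CYP718 was 2.43 ± 0.263-fold, CYP71B11 2.50 ± 0.378-fold and CYP706A7 2.35 ± 0.557-fold lower. CYP71B11 and CYP71B13 have 86.9% of their 1491 coding bases in common, so reads may be shared between them, though the expected counts of both were whole in every root library.

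In KIN10ox, 20 of the 27 members were in the authors' deposited table, 9 upward and 11 downward, against 76.4% of all root genes. An adjusted p under 0.05 was given for 7 in each direction, beside 34.8% of all genes upward and 24.1% downward, and 15 members were at least 2-fold apart without overlap, against 64.5%. Of the 11 downward members CYP71B26, CYP71B13, CYP71B5, CYP708A3 and AT3G44970 stayed under 1 FPKM in the mean of every root group. CYP71B26 went from 0.780, 0.640 and 0.640 FPKM to 0.0400, 0.190 and 0.190 FPKM, and AT3G44970 from 0.130, 0.220 and 0.160 FPKM to 0 counts. CYP96A5, at most 0.170 FPKM, was in the Ler table upward. Among members at 1 FPKM or more, the plot of nitrate folds shows the same side of 0 in both genotypes for all but CYP76G1.

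**Figure D1:**
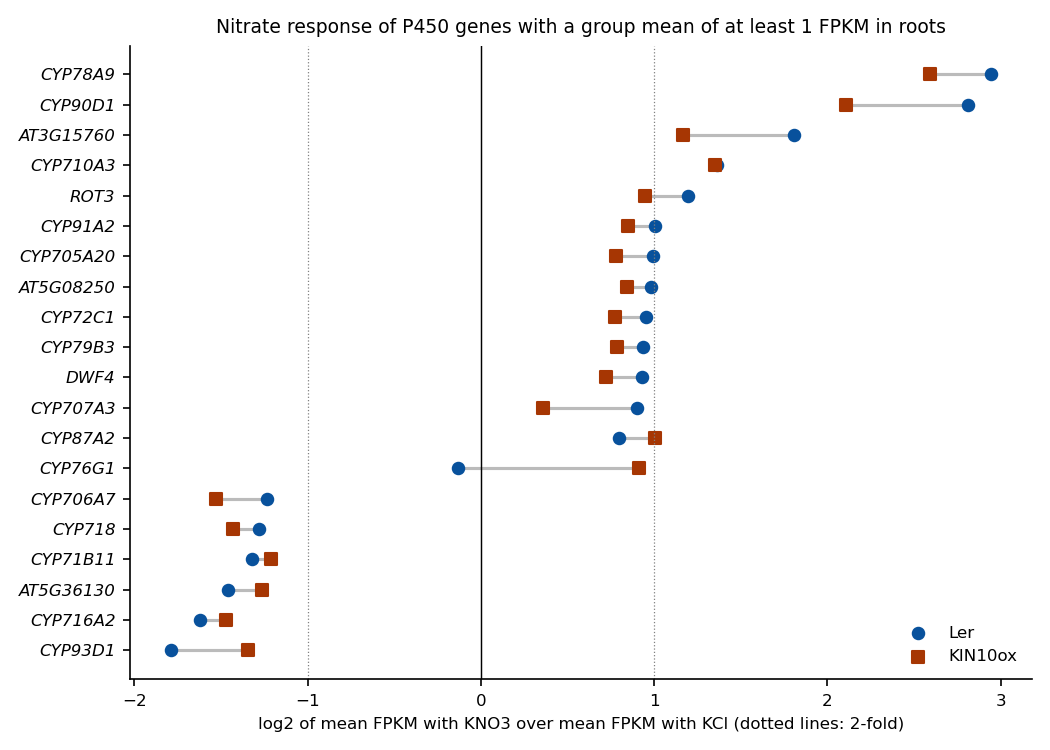
Nitrate response of the 20 P450 genes with a group mean of at least 1 FPKM in roots, as the log2 ratio of mean FPKM with KNO3 to mean FPKM with KCl (n = 3 each), with circles for Ler and squares for KIN10ox. CYP78A9 and CYP90D1 lie farthest to the right in both genotypes, and CYP76G1 is the gene whose points lie on opposite sides of 0.

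The difference between the 2 nitrate responses was tested directly. None of the 24 members tested was called by edgeR, nor was any of the 972 root genes (0.0%), while DESeq2 called 38 genes and no member. At an unadjusted p under 0.05 there were 2 members, against 187 of the 972 genes. These were CYP76G1, with a log2 difference of the responses of 1.03 ± 0.36 (SE) and adjusted p = 0.163 by edgeR, and CYP708A3, whose low counts are given below. CYP87A2 stood at 13.8, 15.8 and 14.1 FPKM with KCl and at 31.5, 19.7 and 36.6 FPKM with KNO3 in KIN10ox. It was in the KIN10ox table, at an authors' log2 fold of 1.19, and not in the Ler table. Its ratios of mean FPKM were 2.01 in KIN10ox and 1.74 in Ler. Yet the difference of its responses was 0.21 ± 0.26 on the log2 scale, adjusted p = 0.665 by edgeR, and 0.43 with adjusted p = 0.236 without KIN10ox library 2 with nitrate. For CYP90D1 it was -0.69 ± 0.34, adjusted p = 0.278, and -0.44 without that library.

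The second question was how the KIN10ox line differs from Ler at the same treatment. With KCl, 4 of 24 members tested were lower in KIN10ox and none higher, 16.7% lower against 6.07% of the 972 root genes, of which 7.72% were higher. Calls in either direction made up 13.8% of all genes. The 4 were CYP76G1, CYP93D1, CYP716A2 and AT5G36130, and the same 4 were called under each of 14 settings. One of these leaves out the 2 KIN10ox libraries with KCl in which the summed level of the listed seed genes was highest. It rests on a single KIN10ox library with KCl, whose spread is assumed to be that of the other groups, and gave adjusted p up to 0.0417. The part of the leaf and seed transcripts in these results was not tested. With the neighbouring models CYP716A2 and AT5G36130 counted as 1, the calls were 3 of 23 members, 13.0%. CYP707A2, too low in counts for the main fit, was called higher in KIN10ox by DESeq2 and with no filter. Over the 24 members the median log2 difference was -0.02, against 0.09 over all genes tested.

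CYP76G1, whose substrate is not known, showed the widest gap. It stood at 8.44, 8.29 and 9.13 FPKM in Ler with KCl and at 0.920, 0.390 and 1.00 FPKM in KIN10ox with KCl. With nitrate it stood at 7.13, 7.48 and 8.98 FPKM in Ler and at 1.18, 1.54 and 1.63 FPKM in KIN10ox. Every KIN10ox library lay under every Ler library at both treatments. The difference of KIN10ox from Ler was -3.47 ± 0.27 (log2, SE) with KCl, adjusted p = 1.66e-05, and -2.44 ± 0.26 with KNO3, adjusted p = 0.000425, by edgeR. In mean FPKM it was 11.2 ± 2.80-fold and 5.42 ± 0.646-fold lower. CYP76G1 was listed only in the authors' KIN10ox table, as a rise with nitrate at an authors' adjusted p of 0.0697. Selection for that rise favours low KIN10ox values with KCl. It thus favours a wider gap with KCl than with KNO3 and the difference of responses given above, and the adjusted p-values do not allow for this.

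CYP93D1 followed the same order. It was at 0.780, 1.13 and 0.960 FPKM in KIN10ox with KCl and at 0.460, 0.280 and 0.390 FPKM with KNO3, against the Ler values above. Its log2 differences were -2.76 ± 0.27 and -2.31 ± 0.29, with edgeR adjusted p = 6.28e-05 and 0.000695. Unlike CYP76G1 it had a lower mean with nitrate in both genotypes. CYP716A2 was lower in KIN10ox by 1.73 ± 0.0791-fold with KCl and by 1.56 ± 0.0851-fold with KNO3, with edgeR adjusted p = 0.000424 and 0.00184. AT5G36130 was lower by 1.71 ± 0.0859-fold and 1.49 ± 0.127-fold.

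**Figure D2:**
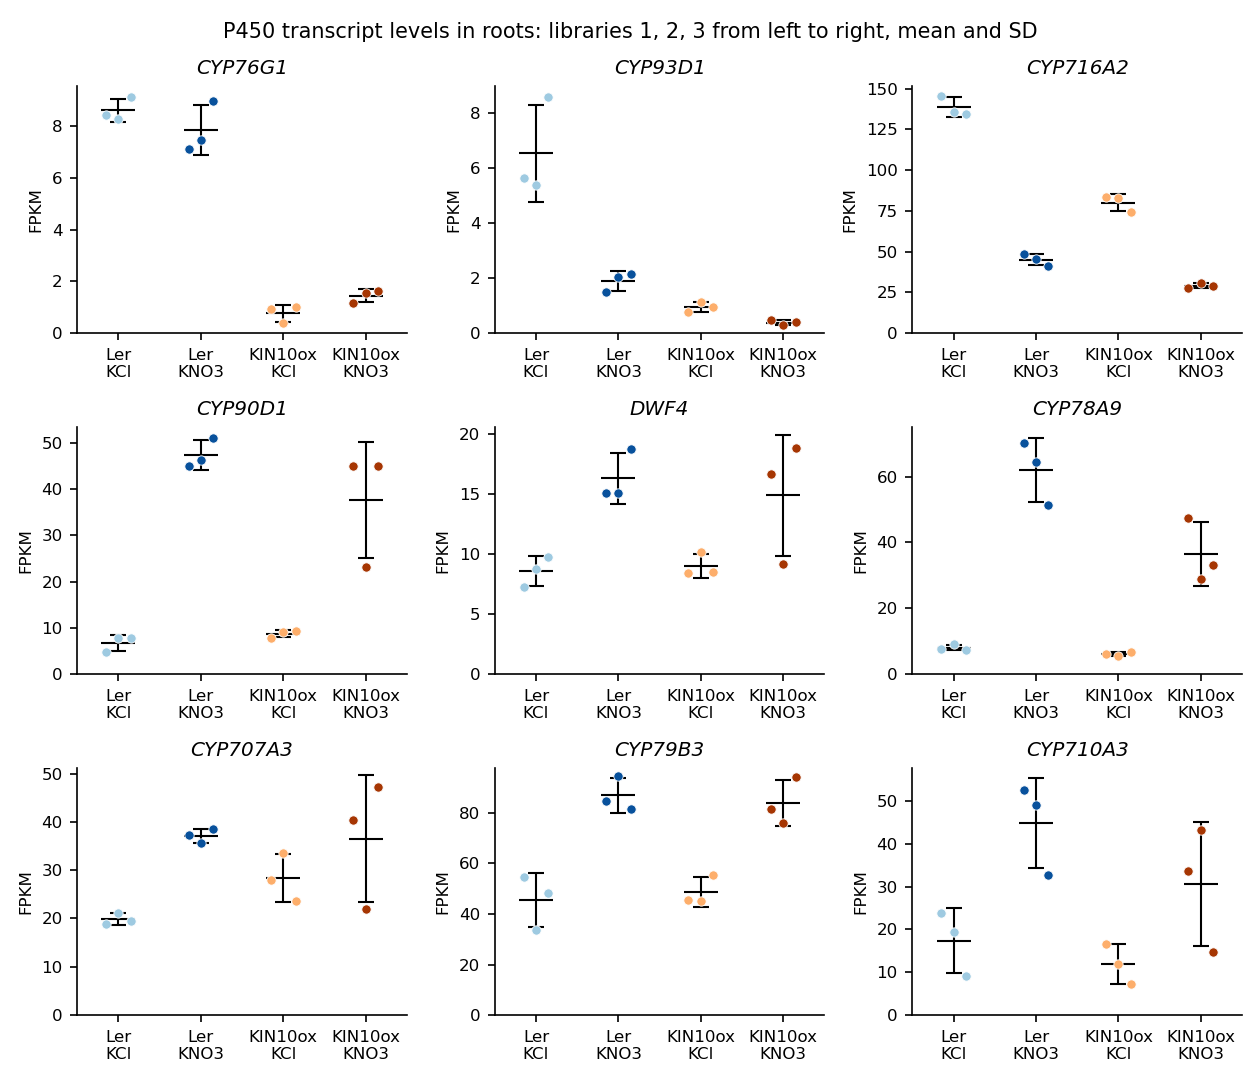
FPKM of 9 P450 genes in the 12 root libraries, with 1 panel per gene, a point per library (libraries 1, 2 and 3 from left to right in each group) and bars for mean and SD (n = 3). CYP76G1 is between 7.13 and 9.13 FPKM in all Ler libraries and at most 1.63 FPKM in KIN10ox, and library 2 of KIN10ox with KNO3 lies under its companions in CYP90D1, DWF4 and CYP707A3.

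With KNO3, 7 of 24 members were lower in KIN10ox and none higher, 29.2% against 8.95% lower and 2.67% higher among the 972 genes. With the neighbouring models as 1 it was 6 of 23, 26.1%. Calls in either direction made up 11.6%. Besides the 4 above they were CYP78A9 at -0.77 ± 0.18, CYP705A20 at -0.52 ± 0.14 and CYP708A3 at -3.02 ± 0.88 on the log2 scale, with edgeR adjusted p = 0.0167, 0.0346 and 0.0444. CYP705A20 was listed by the authors only for a rise in Ler, and CYP708A3 for a rise in Ler and a fall in KIN10ox. The same nitrate libraries are compared here, so lower values in KIN10ox were favoured by the selection of both genes. Their adjusted p-values do not allow for this. CYP76G1 and CYP93D1 were called under each of 13 settings, CYP716A2 under 12, AT5G36130 under 11, CYP78A9 under 10, CYP705A20 under 5 and CYP708A3 under 2 of the 12 that tested it. All listed genes tested had a median log2 difference of -0.19 at this treatment and the members one of -0.31, and TMM scaling moved the first to 0.02. Under TMM scaling 4 members were lower and none higher, while the split of all calls went from 26 higher and 87 lower to 71 higher and 43 lower.

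**Figure D3:**
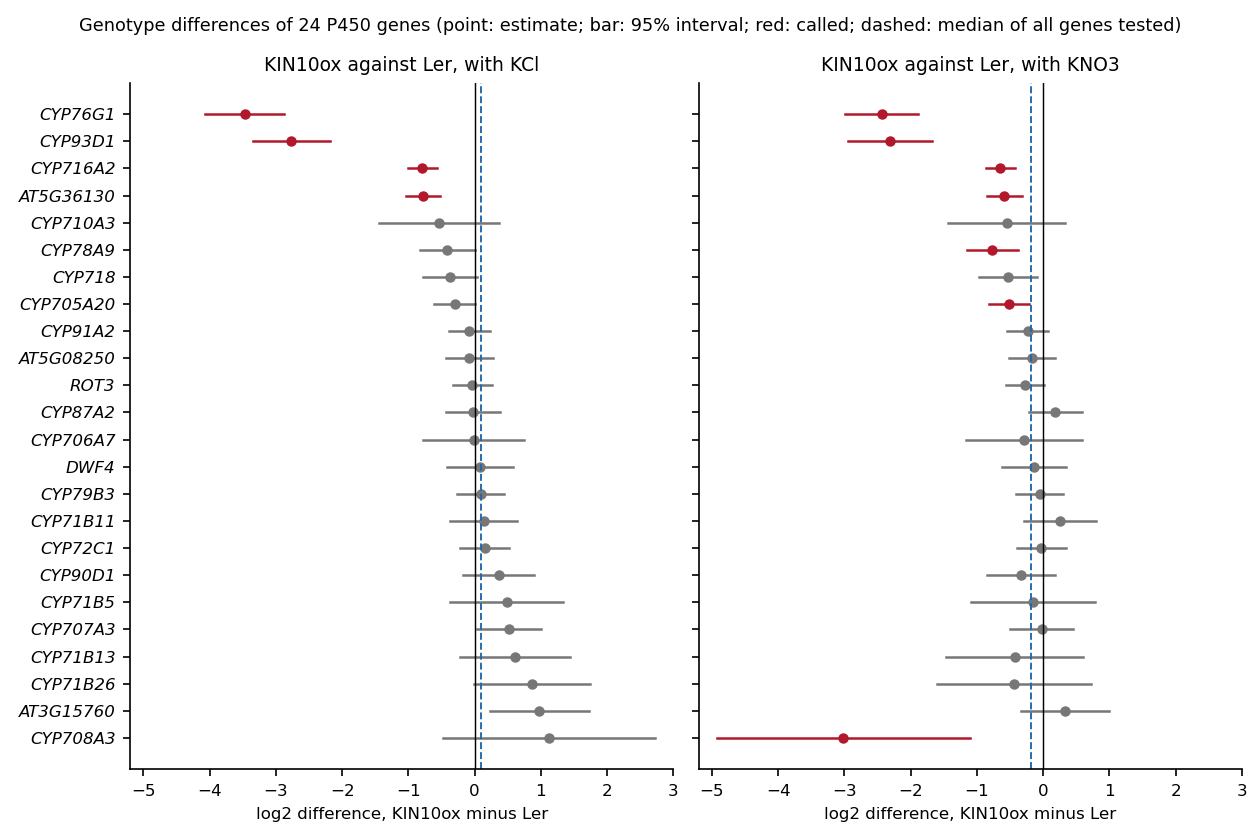
Log2 difference of KIN10ox from Ler for the 24 P450 genes tested, with KCl on the left and KNO3 on the right, as edgeR estimate (point) and 95% interval (bar), in red where called. The dashed line is the median of all 972 genes tested, 0.09 and -0.19, and CYP76G1 and CYP93D1 lie farthest left of it with KCl.

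Of the 20 members with no call with KCl, 11 had log2 differences beyond 0.3 in either direction. The largest of those were 1.12 for CYP708A3, 0.97 ± 0.34 for AT3G15760 (adjusted p = 0.0789 by edgeR), 0.87 ± 0.40 for CYP71B26 and 0.61 ± 0.38 for CYP71B13, all higher in KIN10ox, and -0.54 ± 0.42 for CYP710A3 was the lowest. Among members nearer 0 the 95% interval was -0.33 to 0.26 for ROT3, -0.26 to 0.45 for CYP79B3 and -0.41 to 0.58 for DWF4 on the log2 scale. CYP707A3 had a higher mean in KIN10ox with KCl, 28.4 ± 5.00 against 19.9 ± 1.17 FPKM (SD, n = 3), and did not pass by edgeR at 0.52 ± 0.22, adjusted p = 0.153. CYP708A3, a relative of the thalianol hydroxylase CYP708A2, was at most 0.380 FPKM in any library. It stood at 0.12, 0 and 0.17 FPKM in Ler with KCl, 0.21, 0.17 and 0.36 in Ler with KNO3, 0.12, 0.38 and 0.14 in KIN10ox with KCl and 0.03, 0.03 and 0.02 in KIN10ox with KNO3. These are 17, 43, 37 and 5 counts per group, so its values are limited by depth.

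FAH1, the ferulate hydroxylase of lignin synthesis, is a P450 enzyme by textbook knowledge but carries neither the symbol nor the words of the rule, and it is given as a partner. It rose in Ler from 17.6 ± 1.95 to 37.0 ± 4.88 FPKM (SD, n = 3) and was not in the KIN10ox table, at 19.7 ± 3.17 and 26.9 ± 6.17 FPKM. Genes that supply electrons to P450 enzymes, reductases and cytochrome b5 among them, were looked for as a list of 8, and none was in any table. No gene was listed either among 3 P450 genes of aliphatic glucosinolates, 5 of gibberellins, 5 of jasmonate and oxylipins and 7 of carotenoids, sterols and strigolactone. The last list does not hold CYP710A3, the member of the sterol desaturase family described above.

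The third question was how P450 genes respond to NLP7 in mesophyll protoplasts. Of 19 members 18 were in the authors' deposited table for NLP7 against GFP, 17 upward and 1 downward, all with an adjusted p under 0.05 there, against 96.1% of the 2065 listed genes. With that adjusted p 81.0% of all listed genes were upward and 4.41% downward, and 94.0% were at least 2-fold apart without overlap beside 17 of the 19 members, so the members follow the listed genes. In FPKM per library the transfected NLP7 itself went from 43.2 to 53.7 in the GFP libraries to 1536 to 2261. Only 11 of the 19 members reached a mean of 1 FPKM in some group, and 7 were at 0 counts in all GFP libraries.

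CYP90D1 and CYP71B5 reached the highest levels with NLP7, in FPKM, which is per length. CYP90D1, already the steroid gene with the largest nitrate rise in roots, stood at 0.220, 0.110 and 0.230 FPKM with GFP and at 118, 94.8 and 105 FPKM with NLP7. The rise was 568 ± 122-fold from a base of 17 counts. CYP71B5, of the large CYP71 family and without a role known here, went from 11.7, 9.06 and 9.66 to 173, 137 and 152 FPKM, 15.2 ± 1.57-fold. In roots CYP71B5 was at 1.27 FPKM or less in every library and was in the KIN10ox table with a fall, at an authors' adjusted p of 0.209.

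Of the remaining members in both tissues, the ABA hydroxylase genes rose with NLP7 and with nitrate in Ler roots. Neither was in the KIN10ox table. CYP707A2 went from 0 counts with GFP to 4.57, 2.86 and 4.06 FPKM with NLP7, at least 104-fold, and CYP707A3 from 1.97, 2.20 and 2.45 to 4.80, 4.58 and 4.84 FPKM, 2.15 ± 0.140-fold. ROT3 went from 0.580, 0.180 and 0.0300 to 2.36, 2.07 and 2.19 FPKM. CYP87A2, CYP710A3 and AT5G08250 went from 0 counts to means of 0.657 ± 0.160, 0.370 ± 0.313 and 0.827 ± 0.196 FPKM (SD, n = 3). The 8 shared genes are 29.6% of the root members and 42.1% of the protoplast members.

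The members tied to surface lipids and terpenes were higher with NLP7 in all but 1 case, where 81.0% of all listed genes rose. CYP86B1, which hydroxylates very long chain fatty acids for suberin, went from 0 counts to 3.00, 1.95 and 2.65 FPKM, at least 90.0-fold. The fatty acid epoxidase gene CYP77A4 rose 3.47 ± 0.810-fold to 1.40 ± 0.128 FPKM (SD, n = 3). Of 21 partner genes for suberin and cutin 5 had values and 4 rose, near the 81.0% of all listed genes that did, with MYB41, a regulator of suberin, from 0 to 12.9 ± 2.77 FPKM and the acyltransferase genes GPAT6 and GPAT8 to 2.56 ± 0.555 and 1.39 ± 0.211 FPKM. CYP708A2, the thalianol hydroxylase, rose from 2.79, 2.23 and 2.30 to 10.99, 9.64 and 9.60 FPKM, 4.13 ± 0.352-fold. Among the remaining members CYP706A6 rose 3.61 ± 0.516-fold and CYP71A14 3.35 ± 0.288-fold. Expected counts of CYP706A6 were not whole in any NLP7 library, such as 241.26 in library 1, so its reads may be shared with other genes. CYP78A7, CYP79A2 and CYP71B9 stayed under 1 FPKM. CYP82G1, which makes a volatile homoterpene, was the member that fell, from 18.8, 15.2 and 19.3 to 8.58, 9.99 and 8.95 FPKM, 1.93 ± 0.166-fold.

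**Figure D4:**
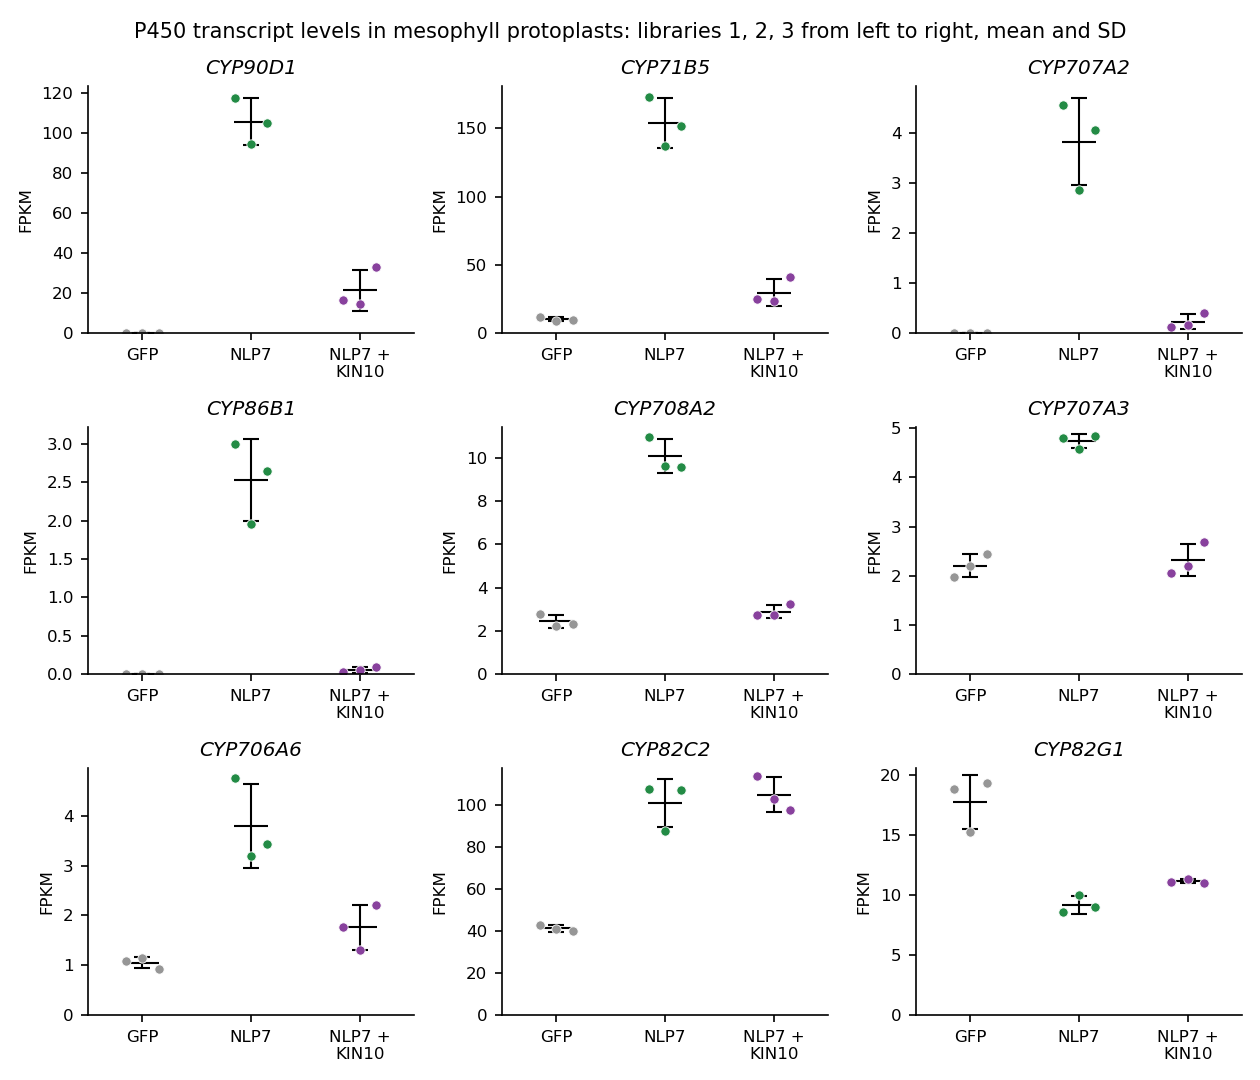
FPKM of 9 P450 genes in the 9 protoplast libraries, with 1 panel per gene, a point per library (libraries 1, 2 and 3 from left to right in each group) and bars for mean and SD (n = 3). CYP90D1 is at most 0.230 FPKM with GFP and between 94.8 and 118 FPKM with NLP7, and CYP82C2 stays near 100 FPKM where KIN10 is added.

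The fourth question was what adding KIN10 to NLP7 does. Of 15 members tested 13 were lower with KIN10 than with NLP7 alone and none was higher, 86.7% against 86.4% lower and 3.83% higher among the 1722 genes tested, so the share of the members is near that of the listed genes as a whole. This split depends on the scaling: TMM scaling over the listed genes gave 3 members higher and 7 lower, and DESeq2 size factors 2 higher and 8 lower. Under TMM scaling ROT3, CYP77A4 and CYP71A14 kept a value below 0 and lost their calls, with adjusted p = 0.291, 0.599 and 0.888 by edgeR. Calls with the main scaling in either direction made up 90.2%. Of the 19 protoplast members 17 were listed for a rise with NLP7 against GFP. The same NLP7 libraries are the reference here, so lower values with KIN10 were favoured by the selection. The adjusted p-values here and below do not allow for this. The median log2 difference was -1.91 over the members and -1.47 over all genes. The NLP7 transcript itself was lower with KIN10, at 280, 212 and 417 FPKM against 2261, 1536 and 1950 FPKM with NLP7 alone, 6.32-fold in the means, and KIN10 stood at 407, 287 and 546 FPKM against 26.2 to 33.1 in the other protoplast libraries. The part of the lower NLP7 level in these results was not tested.

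CYP90D1 was at 16.6, 14.6 and 33.2 FPKM with KIN10 added, 4.94 ± 1.39-fold lower than with NLP7 alone and still 115-fold over GFP. CYP71B5 was at 24.9, 23.2 and 40.8 FPKM, 5.19 ± 1.04-fold lower. Their log2 differences from NLP7 alone were -2.30 ± 0.25 and -2.38 ± 0.20, with edgeR adjusted p = 8.14e-07 and 7.96e-08. Under TMM scaling they were -0.86 and -0.92, and under DESeq2 size factors -1.06 and -1.12, called in each case. The authors' log2 folds against GFP were 9.09 with NLP7 and 6.85 with KIN10 added for CYP90D1, and 3.87 and 1.55 for CYP71B5. In both genes library 3 was the highest of its group, as it was in NLP7 itself. Of 8 members at a mean of at least 0.5 FPKM in this group 6 were highest in library 3, against 68.4% of 1258 genes.

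CYP86B1 was at 0.02, 0.05 and 0.09 FPKM with KIN10 added, with a log2 difference of -5.54 ± 0.41 by edgeR. CYP707A2 was at 0.120, 0.160 and 0.400 FPKM, with -4.28 ± 0.40. The means of CYP708A2, CYP707A3 and CYP706A6 with KIN10 added lay between 1.05-fold and 1.67-fold of their GFP means, and the libraries of CYP706A6 alone did not overlap GFP. They were at 2.89 ± 0.309, 2.31 ± 0.325 and 1.76 ± 0.455 FPKM (SD, n = 3) against 2.44 ± 0.305, 2.21 ± 0.240 and 1.05 ± 0.112 FPKM. The call of CYP707A3 at -1.04 and that of CYP706A6 at -1.12 depend on the scaling, since TMM scaling over the listed genes moved the median of all genes from -1.47 to 0.01 and turned these values to 0.44 and 0.36. CYP708A2 kept its sign under TMM scaling at -0.33 but lost the call, adjusted p = 0.0568 by edgeR. DWF1, a partner gene of brassinosteroid synthesis, was lower as well, at 2.00 ± 0.392 against 4.51 ± 0.0404 FPKM, with a log2 difference of -1.18.

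CYP82C2 and CYP82G1 were the tested members with no call. CYP82C2 makes a hydroxylated indole carbonyl nitrile, a defence compound from tryptophan. It stood at 42.9, 40.8 and 39.9 FPKM with GFP, 108, 87.6 and 107 FPKM with NLP7 and 114, 103 and 97.5 FPKM with KIN10 added. The 2 NLP7 groups overlapped and both lay wholly above GFP. The log2 difference was 0.05 ± 0.13 with a 95% interval of -0.23 to 0.34 and adjusted p = 0.705 by edgeR. CYP82G1 was at 11.10, 11.31 and 10.96 FPKM, above all 3 libraries with NLP7 alone, with a log2 difference of 0.28 ± 0.16, an interval of -0.06 to 0.61 and adjusted p = 0.107 by edgeR. Against the median of all genes tested both intervals lie higher. Under TMM scaling, computed from the listed genes alone, both were called higher, at 1.56 and 1.76. The authors' log2 folds of CYP82C2 against GFP, not scaled in this way, were 1.24 with NLP7 and 1.35 with KIN10 added. CYP82G1 was not in the authors' table for NLP7 with KIN10.

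**Figure D5:**
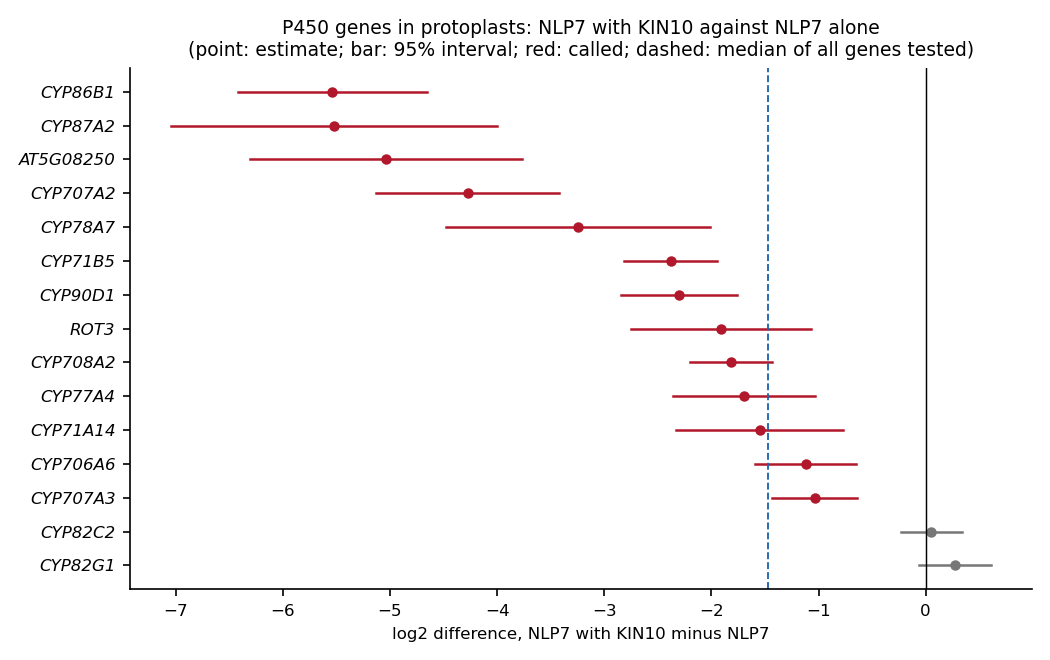
Log2 difference of NLP7 with KIN10 from NLP7 alone for the 15 P450 genes tested in protoplasts, as edgeR estimate (point) and 95% interval (bar), in red where called. The dashed line is the median of all 1722 genes tested, -1.47, and CYP82C2 and CYP82G1 are the 2 genes whose intervals include 0.

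Against GFP, 5 of the 19 members were in the authors' deposited table for NLP7 with KIN10, 4 upward and 1 downward, against 22.0% of the 2065 listed genes. The 4 upward ones were CYP90D1, CYP71B5, CYP82C2 and CYP707A2, all with an adjusted p under 0.05 there, beside 13.7% of all genes upward and 1.31% downward. By fold 7 members were at least 2-fold apart without overlap, against 24.4%. CYP82C2 was 2.54 ± 0.128-fold over GFP with KIN10 and 2.45 ± 0.168-fold without, and these folds share the GFP libraries. CYP96A12 was downward at a mean of 0.0233 FPKM, with an authors' adjusted p of 0.121.

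The 250 bases before each gene start were searched on both strands for CACGTG, the G-box, and for TTGACC or TTGACT, the W-box bound by WRKY factors. A G-box stood in 3 of the 38 members and a W-box in 11, while among 27443 protein-coding genes of the assembly 6.49% had a G-box and 28.41% a W-box. CYP82C2, for which KIN10 gave no call, had 3 W-box matches in chr4:15462100-15462349 on the plus strand. CYP707A3, with values in both tissues, had 1 G-box and 2 W-box matches in chr5:18371022-18371271 on the minus strand. Both are shown 5′ to 3′ for this reason, with the matches on either strand in capitals and no overlap between them. CYP82G1, the other tested member with no call for KIN10, had no W-box match. Among members called lower with KIN10, CYP707A3, CYP71B5, CYP86B1, ROT3, CYP77A4 and CYP71A14 had at least 1 W-box match and the others had none. A match is a description of letters and not of a bound site.
CYP82C2: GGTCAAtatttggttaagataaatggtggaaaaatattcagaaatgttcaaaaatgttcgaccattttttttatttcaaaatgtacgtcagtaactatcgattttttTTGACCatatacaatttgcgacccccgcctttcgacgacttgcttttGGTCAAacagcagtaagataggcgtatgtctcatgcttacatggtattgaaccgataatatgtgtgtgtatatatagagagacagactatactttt
CYP707A3: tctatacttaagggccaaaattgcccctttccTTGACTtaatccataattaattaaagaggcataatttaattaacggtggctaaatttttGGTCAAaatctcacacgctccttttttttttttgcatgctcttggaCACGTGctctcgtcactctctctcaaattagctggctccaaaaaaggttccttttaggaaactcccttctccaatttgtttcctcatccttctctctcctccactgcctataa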

How the data were processed

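RNA sequencing of 12 root and 9 protoplast libraries was used, grouped from the labels, which name biological replicates. One label field of the protoplasts names Ler seedlings and the genotype field Col-0, which is used here. Sequencing used a BGISEQ-500. HISAT, Bowtie2 and TAIR10 are named per the submitters' processing notes, and neither tool versions nor strand are stated in what was used here. The authors deposited 4 tables holding only genes they selected, 770 for nitrate in Ler, 862 in KIN10ox, 1985 for NLP7 and 455 for NLP7 with KIN10. The deposited columns hold, per the file headers, FPKM, TPM (scaled over all transcripts) and expected counts for each library, with the authors' log2 fold changes, p-values and adjusted p-values from DESeq2. The study's design text instead names NOISeq, so which of these selected the genes is not settled. Another 18 columns, of no sample in the list, were not used. Without KIN10 in the root tables, no check of the overexpression label was made.

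Library sizes were recovered from expected counts and FPKM. Expected counts were rounded, genes kept by filterByExpr (972 of 1128 in roots, 1722 of 2065 in protoplasts), and edgeR 4.0.16 quasi-likelihood fits run over all groups of a tissue with those library sizes and no further scaling, in R 4.3.3. The adjustment covers listed genes alone, and selection on the same libraries can favour calls. On simulated data the step recovered 63, 64, 47 and 62% of 2-fold changes for KCl, KNO3, the difference of responses and KIN10 added. For comparisons with a deposited table no test was run. Folds against a group with no counts use a floor of 3 counts for its libraries together and cover counting error only. Chi-square per degree of freedom between replicate libraries was 2.97 to 75.5, so none is a repeat deposit. Coordinates of all 38 members match the RefSeq TAIR10.1 annotation. Alternatives were other scalings, DESeq2 1.42.0, no filter, a replicate block, left-out libraries, TPM, a pseudocount of 1 FPKM and a minimum of 1 FPKM. Named genes were CYP76G1, CYP82C2, CYP708A3, all members called by edgeR, the 5 largest rises and falls per table at 1 FPKM or more, members in both tissues, and members of the pathway lists. The members and lists were chosen with earlier results of these data known.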

Additional observations from a re-analysis of the deposited data

Results flagged for a closer look

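For CYP708A3 every nitrate library lay above the KCl mean in Ler and below it in KIN10ox. Neither response passed in the authors' deposited tables, with adjusted p of 0.208 in Ler and 0.0516 in KIN10ox, and the Ler libraries overlapped. The Ler fold of 2.55 was 1.70 without KCl library 2 and 4.11 without KCl library 3. The log2 difference of the responses was -4.14 ± 1.15 (SE), with an edgeR adjusted p of 0.111 over the 972 genes tested, so it did not pass. The groups held 17, 43, 37 and 5 counts. No group has 4 libraries, so single libraries were not tested as outliers.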

How the results depend on the processing

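Members lower in KIN10ox with KNO3 numbered 7, and 4 under TMM scaling, 3 under DESeq2 size factors, 7 by DESeq2, 6 with no filter and 4 to 6 with 1 library left out, where CYP78A9, CYP705A20 and CYP708A3 were the ones most often lost. With KCl the same 4 were called lower in each setting, and 4 were called with each library left out. By DESeq2 and with no filter 1 more was called, CYP707A2, higher in KIN10ox at log2 differences of 4.46 to 5.05. It had 0 counts in Ler with KCl and 12 in KIN10ox with KCl. For KIN10 added, calls went from 13 lower to 3 higher and 7 lower under TMM scaling, and to 2 higher and 8 lower under DESeq2 size factors, where CYP707A3 turned to 0.44 and 0.24 and CYP706A6 to 0.36 and 0.15. Both 17 by DESeq2 and with no filter include genes of few counts, and 13 were called with each library left out. CYP82C2 ranged from -0.0389 (without NLP7 library 2) to 0.105 with 1 library left out and was -0.0112 without NLP7 with KIN10 library 1, with no call in any of these. The cause of these changes was not tested. TMM scaling and size factors were computed from the listed genes alone. For KIN10 added they moved the median of all genes tested from -1.47 to 0.01 and to -0.20. For KCl, TMM scaling changed the split of all calls from 75 higher and 59 lower to 52 and 77. The difference of responses had 0 members in every setting.

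Members at least 2-fold apart without overlap numbered 15 in Ler, 15 in KIN10ox, 17 with NLP7 and 7 with NLP7 and KIN10. With a pseudocount of 1 FPKM they were 9, 5, 8 and 3, and a minimum mean of 1 FPKM gave 9 in KIN10ox, 10 with NLP7 and 3 with NLP7 and KIN10. Requiring the authors' adjusted p gave 4 for the last. Leaving out 1 library gave 14 to 17, 13 to 17, 17 to 18 and 7 to 8.

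Replicate numbers are shared between groups but are not stated to pair libraries. Same-numbered deviations correlated at -0.257 to 0.305 in roots and -0.0456 to 0.158 in protoplasts. With 3 libraries per group these values cannot settle whether the numbers pair libraries, and the main fits did not pair them. With the replicate number as a block, members called were 4 with KCl, 7 with KNO3 (CYP710A3 gained and CYP708A3 lost), 0 for the difference of responses and 13 for KIN10 added.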
